A study of Mus musculus with 12 samples.

Results

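In regenerating muscle of dystrophic mice, 436 of 14063 genes differed with a miR-106b inhibitor in 1 direction at day 3 after injury and in the other direction at day 7. The change of the inhibitor effect between the days was tested for every gene that reached 1 CPM (a read count corrected for library size) in at least 3 of the 12 libraries, 14063 of the 28116 gene symbols measured. It was the effect at day 7 minus the effect at day 3, called the interaction here. A gene was counted as reversed when the interaction passed an adjusted p below 0.05, the daily effects had opposite signs, and the unadjusted p was below 0.05 on each day. The interaction condition removed 0 of the genes that met the other conditions, so the set rests on the unadjusted p-values of the days. Of the 436, 222 were higher with the inhibitor at day 3 and lower at day 7, and 214 were lower first and higher later. With an adjusted p below 0.05 asked on each day, 3 of the 436 were left. Genes whose effect kept its sign and shrank were kept apart as faded.

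RNA was measured in tibialis anterior, a muscle of the lower leg, from mice of the strain C57BL/10ScSn-Dmdmdx/J (mdx), aged 4 months. All 4 groups carry the mdx mutation and lack functional dystrophin, and there was neither an uninjured nor a dystrophin-positive group. Every muscle received cardiotoxin (CTX), a venom toxin that kills fibres and sets off regeneration. With it went either antimiR106b or the antimiR-Scrambled control, and muscles were taken at day 3 or day 7, with 3 animals for each combination. The design text gives the later time once as day 5, whereas the label of every library says 3 or 7. A single mdx strain and 1 injected muscle limit the groups as a model, and the labels state neither dose nor uptake of the inhibitor.

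The libraries held 28857739 to 42825246 reads, and 1 read was worth 0.0213 to 0.0356 CPM. Scaling factors in the deposited values differed between groups, with means of 1.12 and 1.28 at day 3 (scrambled and antimiR106b) and 0.845 and 0.828 at day 7. Fibre genes were present as the muscle label states: all 24 mature fast fibre markers had reads, and their summed level was 114044 to 135355 CPM in scrambled and 72571 to 78960 CPM in antimiR106b libraries at day 3. At day 7 the same sums were 224077 to 249587 and 216182 to 238729 CPM. Levels below are log2 CPM. Effects are antimiR106b minus scrambled on the log2 scale, with their SE from limma.

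MicroRNAs are short RNAs that guide a silencing complex to messenger RNAs, mostly through pairing of their seed with sites in the 3′ UTR, and lower the level or translation of those messengers. An inhibitor binds the microRNA and is meant to release its targets. After a toxin injury, muscle first fills with macrophages and dividing satellite cells, the muscle stem cells, while vessels regrow, and new fibres then mature. The sequence of mouse miR-106b-5p is shown because the inhibitor is named for it (RefSeq, GRCm38.p6, chr5:138165787-138165807, minus strand, in an intron of Mcm7). Capitals mark the seed, bases 2 to 8.
mmu-miR-106b-5p: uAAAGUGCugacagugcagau

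The seed pairs with GCACTTTA, its complement followed by A, and this match was searched in 1 UTR per gene, the longest 3′ UTR in GENCODE M21 (GRCm38). It was present in 572 of 12923 kept genes with a 3′ UTR (4.43%). Among genes higher at day 3 and lower at day 7 it was present in 5 of 209 (2.39%), and among genes lower first and higher later in 10 of 199 (5.03%). The median 3′ UTR length was 1077 and 1639 bases in these sets and 1196 bases over all kept genes, and the set with the longer UTRs had the larger share. Of the faded genes, 22 of 355 that were lower at day 3 held the match (6.20%) and 5 of 253 that were higher (1.98%). In these faded sets the median 3′ UTR length was 1514 and 590 bases, and again the set with the longer UTRs had the larger share. The 572 genes with the match had a median effect of -0.06 at day 3 and 0.01 at day 7, beside 0.01 on each day over all kept genes. Examples from each direction of reversal are given below with 8 bases on either side, the match in capitals, and coordinates of the match.
Lif, chr11:4271485-4271492, plus strand: ctctctaaGCACTTTAcctggacg
Sik1, chr17:31844645-31844652, minus strand: atcgacaaGCACTTTActttctgg
Pdlim5, chr3:142240424-142240431, minus strand: gatacctgGCACTTTAcccttctg
Smyd1, chr6:71214108-71214115, minus strand: cctacaaaGCACTTTAtttgcaga
Txnip, chr3:96561241-96561248, plus strand: tgttcttaGCACTTTAgcttgtca
Lif, a cytokine that acts on myoblasts, had an effect of 0.90 at day 3 and -0.89 at day 7. Sik1, a salt-inducible kinase, had 0.53 and -0.34. Pdlim5, a Z-disc scaffold, had -0.41 and 0.29, and Txnip, which binds thioredoxin and restrains glucose uptake, had -0.41 and 0.68. Genes with the same match thus lay on each side. A match is a description of letters and no evidence that the site was used.

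Across all genes the inhibitor effect changed between the days for 3134 of 14063 genes (22.3%), 1858 upward (13.2%) and 1276 downward (9.07%). At an unadjusted p below 0.05 the count was 5035. Of the 3134, 436 were reversed (3.10% of all genes, 13.9% of those called), with 222 higher then lower (1.58%) and 214 lower then higher (1.52%). A further 2043 had effects of opposite sign without p below 0.05 on each day, 646 kept their sign and shrank, and 9 kept their sign and grew. Among the 2043 the median day 7 effect was -0.14 for genes higher at day 3 and 0.09 for genes lower. A day 7 effect near 0 can take either sign, so effects that only shrank may be among these too. The day 3 effect passed the adjusted threshold for 5022 genes (35.7%) and the day 7 effect for 9 (0.0640%), and 79.5% of the genes called in the interaction had a day 7 p of 0.05 or more. With 3 libraries per arm this does not show that their day 7 difference was gone. At an unadjusted p below 0.05 the day 7 effect met 1580 genes (11.2%).

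**Figure D1:**
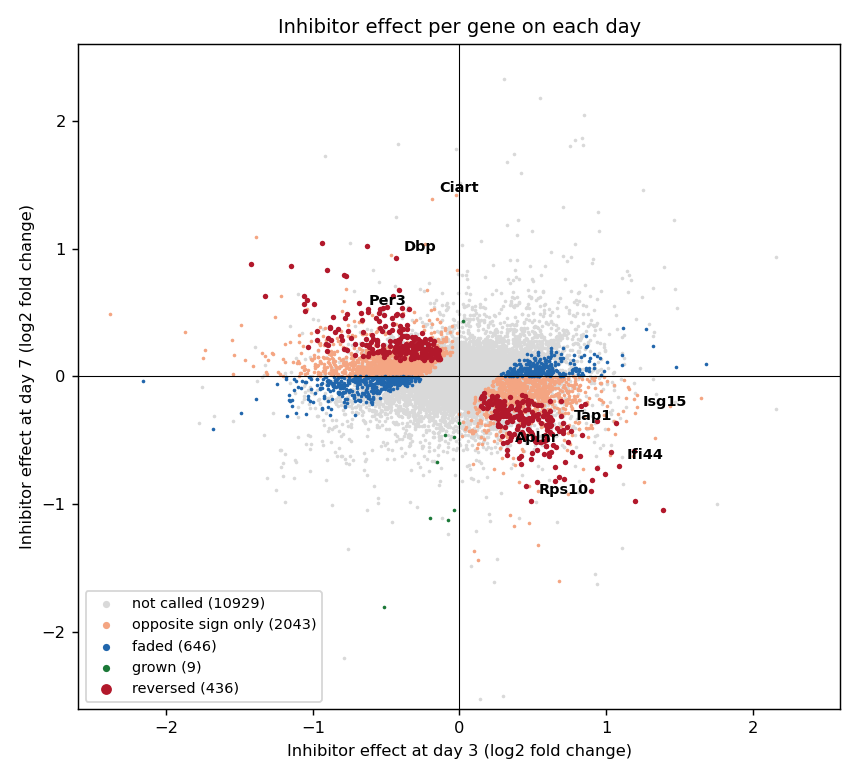
Each point is a kept gene, with the inhibitor effect at day 3 on the x axis and at day 7 on the y axis (log2 fold change, antimiR106b minus scrambled). The 436 reversed genes (red) lie at the upper left and lower right, away from the horizontal zero line on which the faded genes (blue, 646) crowd, and 8 genes lie outside the plotted range.

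The 2 daily effects come from separate libraries, but the fit of all 12 libraries shares an estimate of the spread between the days. The p-values of the days are thus not independent, and the SE of a gene is alike on each day. A p below 0.05 on each day was met by 759 genes, of which 436 had opposite signs and 323 the same sign. Across genes the effects of the days were nearly unrelated (Pearson r = -0.03, Spearman rho = -0.05 over 14063 genes, which are not independent replicates). The day 7 side of a reversal was the weaker: 286 of the 436 had a day 7 p between 0.01 and 0.05. With an adjusted p below 0.05 asked on each day, 4 genes were left, and 3 of these had opposite signs (Aplnr, Pcdh1 and Rps10). All adjusted day 7 calls, those of Aplnr, Pcdh1, Rps10 and Ciart included, were lost without scrambled day 7 replicate 2 and with a replicate block, where 0 genes passed. The fourth gene that passed on each day, Ltbp4, tethers latent TGF-beta in the matrix. Ltbp4 was lower on each day (-0.25 and -0.46) and was chosen here after its values were seen.

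Overlap of the libraries is given as a description, since it uses the same values as the rule. The inhibitor and scrambled libraries did not overlap at day 3 for 60.5% of genes and at day 7 for 10.9%, and they were apart on each day in opposite directions for 487 genes (3.46%) and in the same direction for 373 (2.65%). Of the reversed genes, 154 of the 222 and 127 of the 214 had the arms apart on each day. The rule is a threshold, and genes lie close on either side of it. Phldb2 (0.47 and -0.22) and Ccdc127 (-0.19 and 0.13) were just inside with a day 7 p of 0.04995 and 0.04998, and Ehmt2 (0.40 and -0.16) and Reep4 (0.43 and -0.23) just outside with 0.05009 each. A set of 260 genes met every other condition with a day 7 p between 0.05 and 0.10.

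The count depended on single day 7 libraries and on the scaling. Without scrambled day 7 replicate 1 the reversed genes were 581 and 637, without scrambled day 7 replicate 3 the second count was 129, and without antimiR106b day 7 replicate 2 the first was 126. Scaling by total reads alone moved the median gene by 0.20 at day 3 and by -0.22 in the interaction. The interaction then passed upward in 874 genes and downward in 3487, against 1858 and 1276 with the deposited scaling, and the reversed genes became 459 and 105. In all 12 fits without 1 library, 62 of the 222 and 54 of the 214 were reversed, whereas 186 of each set passed the interaction. The reversed genes given below with a value for every library kept the sign of both daily effects in the 10 other settings and in the 12 fits without 1 library.

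Of the 45 gene lists, the endothelial list held the most reversed genes. Reversed genes outside the lists were not assigned to a cell type. Endothelial cells line the vessels, and after injury they must sprout to restore blood flow. Of 20 endothelial markers, all kept, the interaction passed downward in 15 (75%, against 9.07% of all genes) and upward in 0. Reversed were 9 of the 20 (45%, against 3.10% of all genes): Pecam1, Emcn, Eng, Esam, Egfl7, Robo4, Aplnr, Sox18 and Vwf. The median effect of the list was 0.25 at day 3 and -0.35 at day 7, and the median interaction was -0.54, beside 0.01, 0.01 and 0.00 over all genes. The reversed count was 7 to 11 in the 12 fits without 1 library and 14 with total reads.

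Aplnr, the receptor for the angiogenic peptide apelin, had the smallest day 7 p of all 14063 genes (chromosome 2, 85136225 to 85139923, plus strand). Scrambled libraries read 4.56, 4.43 and 4.52 at day 3 and 5.17, 5.23 and 5.26 at day 7, and antimiR106b libraries 4.91, 4.81 and 4.77 at day 3 and 4.65, 4.63 and 4.67 at day 7. In the control arm every day 7 library lay above the day 3 libraries, with antimiR106b every one lay below, and the arms did not overlap on either day. The effect was 0.33 ± 0.06 at day 3 (adjusted p = 0.00172) and -0.57 ± 0.06 at day 7 (adjusted p = 0.00651), and the interaction was -0.90 ± 0.09 (adjusted p = 0.000285). Its ligand gene Apln was at 2.11, 2.25 and 2.00 against 3.23, 3.33 and 3.37 at day 3, and at 2.64, 2.84 and 3.52 against 2.22, 2.36 and 2.68 at day 7. The Apln arms were far apart at day 3 and overlapped at day 7, with effects of 1.19 ± 0.19 and -0.58 ± 0.19 and an interaction of -1.77 ± 0.26 (adjusted p = 0.00102).

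Pecam1, the junction protein CD31, was at 5.55, 5.40 and 5.40 in scrambled and 5.79, 5.66 and 5.69 in antimiR106b libraries at day 3. At day 7 it was at 6.19, 6.13 and 6.17 against 5.84, 5.66 and 5.82. The arms did not overlap on either day, and the interaction was -0.65 ± 0.10 (adjusted p = 0.00102). Emcn, a sialomucin of capillaries and veins, had effects of 0.34 ± 0.09 and -0.44 ± 0.09. Eng, a TGF-beta co-receptor of dividing endothelium, had 0.60 ± 0.08 and -0.29 ± 0.08, the largest day 3 effect of the 9. Sox18, a transcription factor of vessel growth, had 0.30 ± 0.10 and -0.52 ± 0.10. Robo4 and Esam, which stabilise endothelial junctions, had 0.28 and 0.23 at day 3 and -0.39 and -0.31 at day 7. Vwf, the clotting factor carrier, and Egfl7, a vessel matrix factor, had larger day 7 p-values and were reversed in 9 and 7 of the 12 fits without 1 library.

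Not every endothelial gene behaved in this way. Cdh5, Tie1, Cldn5, Erg and Sox17, all genes of the endothelial junction or identity, had day 7 effects of -0.37 to -0.49 and day 3 effects of 0.02 to 0.16 that did not pass on that day. Plvap, a diaphragm protein of fenestrated vessels, had the converse, with 0.52 at day 3 and -0.07 at day 7. The VEGF receptors Kdr and Flt1 and the angiopoietin receptor Tek had negative effects on each day (-0.28 and -0.32, -0.24 and -0.18, -0.19 and -0.15), and their interactions did not pass. Lyve1 and Prox1, markers of lymphatic vessels, did not pass either.

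**Figure D2:**
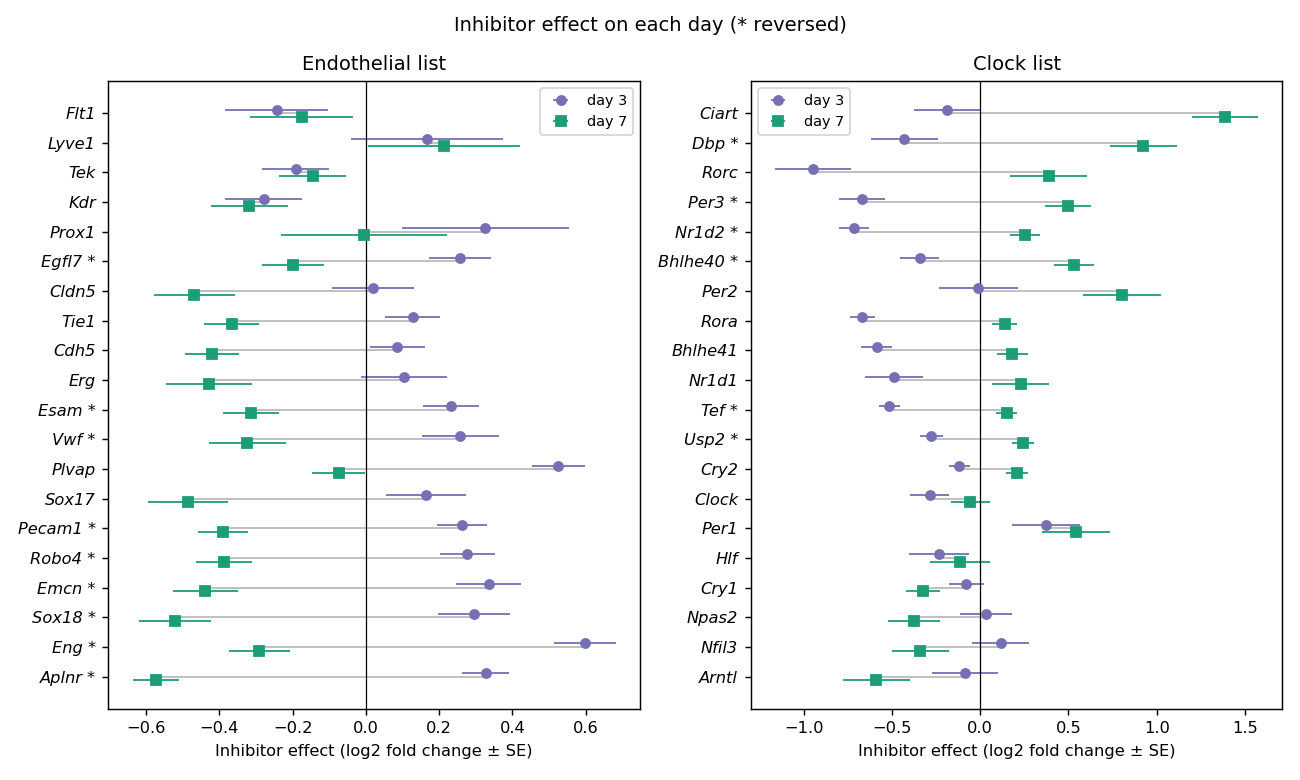
Inhibitor effects ± SE at day 3 (circles) and day 7 (squares) for each kept gene of the endothelial list (left) and the clock list (right), on the log2 scale, ordered by interaction; stars mark reversed genes. The 9 starred endothelial genes run from right of zero at day 3 to left of zero at day 7, and the 6 starred clock genes run the opposite way.

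The summed level of the 20 endothelial markers was 371 ± 11 CPM in scrambled and 433 ± 19 CPM in antimiR106b libraries at day 3 (SD, n = 3). At day 7 it was 555 ± 20 against 440 ± 19 CPM. Library ranges were 362 to 383, 413 to 451, 533 to 574 and 420 to 456 CPM in that order, without overlap between arms on either day, and each marker had reads in every group. In the control arm the sum went up between the days, and with antimiR106b the day 3 and day 7 ranges overlapped. In bulk RNA, fewer cells of a type and less RNA per cell cannot be told apart. The macrophage sum (18 of 18 markers) was 4459 to 4559 and 6234 to 6770 CPM at day 3 and 500 to 798 and 526 to 854 CPM at day 7. Its arms were apart at day 3 and overlapped at day 7, and the part of cell make-up in the reversal was not tested.

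**Figure D3:**
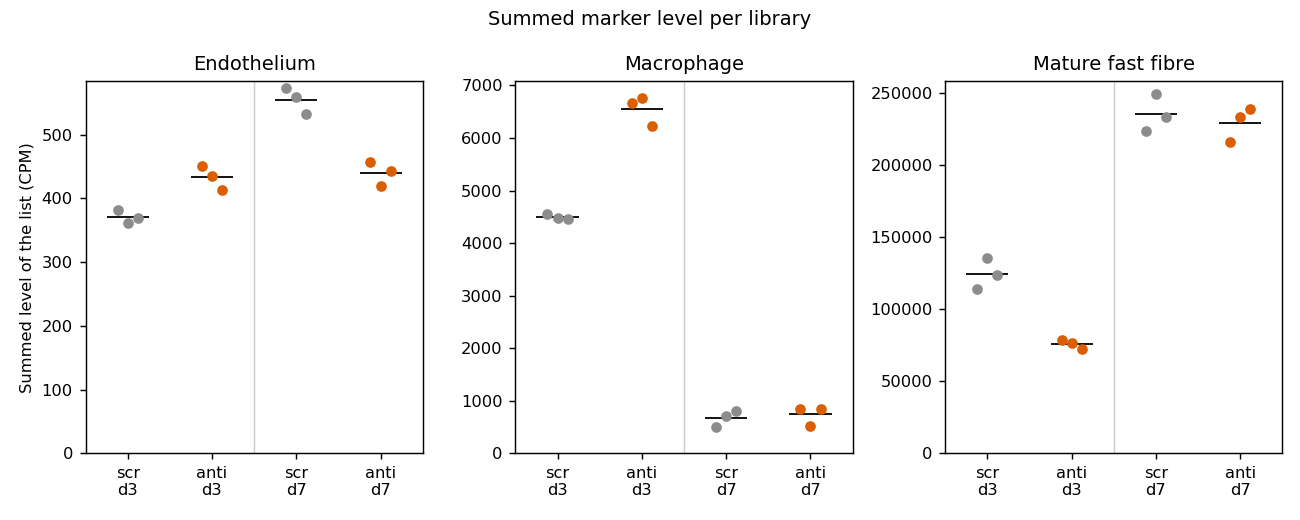
Summed level of each marker list in CPM (linear axis from 0), with a point for each library and a bar for the mean of 3; "scr" is scrambled, "anti" is antimiR106b, and "d3" and "d7" are the days. Endothelial sums are higher with antimiR106b at day 3 (433 against 371 CPM) and lower at day 7 (440 against 555 CPM), whereas macrophage and fast fibre sums are apart at day 3 and overlap at day 7.

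Further vascular genes were among the 222, and these were chosen after their values were seen. Notch4, the endothelial Notch receptor, had 0.41 ± 0.11 and -0.64 ± 0.11. Edn1, the vasoconstrictor endothelin, was at -0.78, -0.03 and -0.18 against 0.43, 0.46 and 0.82 at day 3, and at 0.57, 0.35 and 0.12 against -0.41, -0.55 and -0.44 at day 7. The Edn1 arms thus exchanged places between the days at a low level near 1 CPM. Cd93, Mmrn2, Ephb4, Plxnd1, Unc5b, Fli1, Gja4 and Nostrin, which are receptors, a matrix protein, a transcription factor, a gap junction protein and a nitric oxide synthase partner of endothelium, had day 3 effects of 0.25 to 0.62 and day 7 effects of -0.25 to -0.43. Pcdh12, an endothelial cadherin, was one of the 9 genes whose effect grew, from -0.15 to -0.67 (adjusted p of the interaction 0.0221). That call was lost without scrambled day 3 replicate 1, antimiR106b day 3 replicate 1 or scrambled day 7 replicate 3, with a replicate block and with quantile normalization, at adjusted p-values of Pcdh12 from 0.0506 to 0.0647. The Notch list as a whole had 16 kept genes, of which 5 passed downward (31.2%, against 9.07% of all genes) and 0 upward, and 3 were reversed (18.8%, against 3.10%), namely Notch4, Hey1 and Heyl. Hey1 and Heyl, which are Notch targets of vessels and of satellite cells alike, had 0.30 and 0.47 at day 3 and -0.24 and -0.25 at day 7. Hey1 and Heyl also count in the satellite cell list, in which Pax7 itself, the identity factor of these cells, had 0.21 and -0.15 and did not pass.

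The promoter of Emcn is shown as an example of a reversed endothelial gene (RefSeq, GRCm38.p6, chr3:137340828-137341127, plus strand, 250 bases before to 50 after a transcript start). Capitals mark AGGAAG on either strand, the core bound by ETS factors such as Erg and Fli1, which are known to drive endothelial genes. The motif is common: it stood in 35.4% of 32851 promoters of this length. Counted by gene, 37.7% of kept genes with a promoter held it in any of their promoters. Of the endothelial list, 11 had a promoter in the table and 7 of these held it, as did 4 of the 4 reversed members. Over all reversed genes the shares were 64 of 153 for higher then lower and 53 of 161 for lower then higher. The motif was chosen after the values were seen.
Emcn: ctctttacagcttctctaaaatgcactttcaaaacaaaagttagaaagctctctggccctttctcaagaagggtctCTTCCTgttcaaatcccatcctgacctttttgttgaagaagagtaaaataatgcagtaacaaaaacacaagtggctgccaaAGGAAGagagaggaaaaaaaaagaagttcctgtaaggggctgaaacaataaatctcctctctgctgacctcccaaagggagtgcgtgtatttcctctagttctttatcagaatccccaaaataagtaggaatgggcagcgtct

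Single genes of class I antigen presentation and of the interferon response were also reversed from higher to lower. Cells answer interferon with antiviral proteins and with more of the machinery that loads peptides onto class I molecules. Tap2, a subunit of the peptide transporter (chromosome 17, 34203527 to 34216321, plus strand), was at 4.41, 4.49 and 4.54 against 4.96, 4.97 and 4.82 at day 3. At day 7 Tap2 was at 3.53, 3.59 and 3.60 against 3.20, 3.22 and 3.32. All antimiR106b libraries lay above the scrambled ones at day 3 and below them at day 7, and the effects were 0.43 ± 0.07 and -0.32 ± 0.07. Its partner Tap1 had 0.73 ± 0.12 and -0.40 ± 0.12, although its arms overlapped at day 7.

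H2-Q4, a class I molecule of the Q region, was at 4.88, 4.88 and 4.93 against 5.70, 5.40 and 5.47 at day 3, and at 3.77, 4.02 and 4.08 against 3.66, 3.61 and 3.47 at day 7. Its interaction was -1.0 ± 0.14 (adjusted p = 0.000793). H2-Q5, H2-Q6 and H2-Q7 beside it were reversed as well, with day 3 effects of 0.57 to 0.74 and day 7 effects of -0.51 to -0.71. The H2-Q genes are near-identical copies and may share reads, so they are uncertain as separate genes, and H2-Q6 passed the interaction in 6 of the 12 fits without 1 library. H2-T22, another class I gene, only faded, from 0.68 to 0.02. Psme1, an interferon-induced activator of the proteasome, had 0.46 ± 0.07 and -0.21 ± 0.07.

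Of 26 interferon response genes kept, 22 passed downward (84.6%, against 9.07% of all genes) and 0 upward, and 3 were reversed (11.5%, against 3.10%). The median effect was 0.79 at day 3 and -0.20 at day 7, and 18 of the 22 had opposite signs without p below 0.05 on each day. Ifi44, an interferon-induced protein that restrains viral growth, was at 3.20, 2.99 and 3.23 against 4.43, 3.90 and 4.37 at day 3, and at 0.68, 1.33 and 1.44 against 0.52, 0.37 and 0.46 at day 7. Every antimiR106b library was above the controls at day 3 and below them at day 7, and the interaction of Ifi44 was -1.79 ± 0.26 (adjusted p = 0.000993). Ifit3, which binds viral RNA with its partners, and Uba7, the enzyme that activates Isg15, had day 3 effects of 1.07 and 0.83 and day 7 effects of -0.36 and -0.24. Isg15 itself had 1.20 and -0.29, with an unadjusted limma p of 0.127 at day 7, and so was not reversed.

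The interferon count hung on single day 7 libraries. Without scrambled day 7 replicate 1 it was 16 of 26, without antimiR106b day 7 replicate 1 it was 9, and without scrambled day 7 replicate 3 or antimiR106b day 7 replicate 2 it was 1. These libraries also differed in the summed macrophage markers, which were 500, 706 and 798 CPM in scrambled replicates 1 to 3 and 841, 526 and 854 CPM in antimiR106b replicates 1 to 3 at day 7. Their part in the interferon values was not tested. Other interferon-induced genes among the 222, chosen after their values were seen, were Gbp5, Iigp1, Oas1b, Ddx60, Parp14, Samhd1 and Sp100, with day 3 effects of 0.44 to 0.62 and day 7 effects of -0.19 to -0.86. Gbp5, a GTPase of inflammasome assembly, had the largest of these at day 7, with 1.47, 1.44 and 1.38 in scrambled and 0.48, 0.89 and 0.35 in antimiR106b libraries.

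The promoter of Ifit3 is shown because its gene was reversed and its list moved together at day 3 (RefSeq, GRCm38.p6, chr19:34583279-34583578, plus strand). Capitals mark GAAANNGAAA on either strand, the core of the interferon-stimulated response element. It stood in 3.44% of all 32851 promoters. Counted by gene, in any promoter, it stood in 3.89% of kept genes and in 14 of the 21 interferon response genes with a promoter. The same count gave 14 of 153 genes higher then lower (9.15%) and 4 of 161 lower then higher (2.48%). Of the 3 reversed members of the list, 1 held it, and the motif was chosen after the values were seen. The neighbouring copy Ifit3b was reversed too, and the 2 genes may share reads.
Ifit3: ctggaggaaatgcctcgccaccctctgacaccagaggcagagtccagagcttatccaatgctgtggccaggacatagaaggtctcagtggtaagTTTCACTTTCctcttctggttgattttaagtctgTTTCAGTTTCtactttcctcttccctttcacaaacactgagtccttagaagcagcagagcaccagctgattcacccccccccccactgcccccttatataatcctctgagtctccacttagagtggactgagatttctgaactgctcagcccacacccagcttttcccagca

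Genes were ranked by the smaller of their daily t statistics, and among the 12 leading ones from higher to lower several had no list in common. Trp53i11, a p53-induced membrane protein, was at 4.13, 3.94 and 4.04 against 4.71, 4.70 and 4.47 at day 3, and at 4.05, 3.81 and 3.97 against 3.36, 3.31 and 3.51 at day 7. The control level was alike on the 2 days, and antimiR106b libraries lay above it first and below it later, with effects of 0.59 ± 0.09 and -0.55 ± 0.09. Pcdh1, a protocadherin of cell contacts, was at 2.79, 2.74 and 2.94 against 3.32, 3.43 and 3.20, and then at 3.47, 3.66 and 3.60 against 2.95, 2.94 and 3.04. Its arms crossed as those of Aplnr did, and its day 7 effect was -0.60 ± 0.09 (adjusted p = 0.0376).

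**Figure D4:**
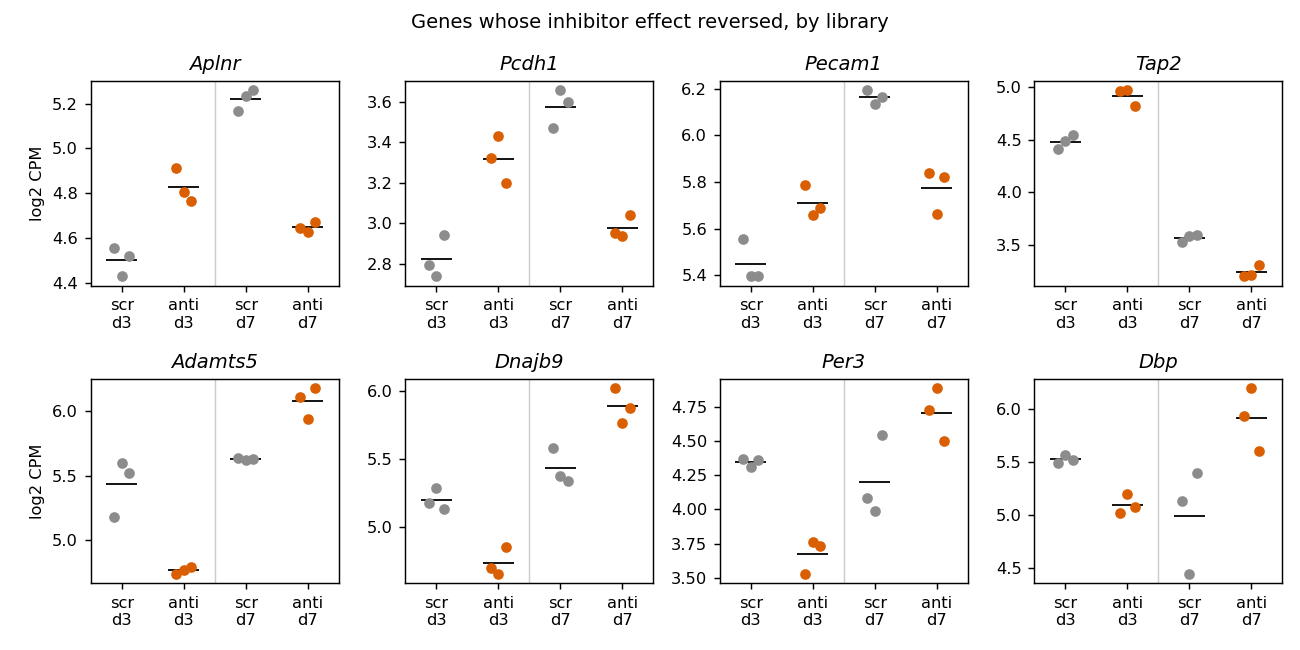
Level of 8 reversed genes in log2 CPM, with a point for each library and a bar for the group mean (n = 3), scrambled (scr, grey) and antimiR106b (anti, orange) at day 3 (d3) and day 7 (d7). In the upper row antimiR106b libraries lie above the control at day 3 and below it at day 7, and in the lower row the order is the other way round, with overlap at day 7 in Per3 only.

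Bmf, a pro-apoptotic BH3 protein, had 0.47 ± 0.09 and -0.41 ± 0.09. Sigirr, which dampens interleukin-1 and Toll-like receptor signals, had 0.64 and -0.54, and F11r, the junctional adhesion molecule A, had 0.33 and -0.36. Prr5, a partner of mTOR complex 2, Micall2, a Rab effector at junctions, and Hid1, a protein of secretory granules, had day 3 effects of 0.77, 0.72 and 0.59 and day 7 effects of -0.59, -0.67 and -0.55. Gimap1, a GTPase of lymphocytes, had 0.52 and -0.51, and its neighbour Gimap4 was reversed too. The lymphocyte list (T and NK cells) had 10 kept genes, of which 0 passed (against 22.3% of all genes). All 10 had a negative interaction, with a median of -0.82, and the median effect went from 0.51 at day 3 to -0.24 at day 7.

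Rps10, a protein of the small ribosomal subunit, differed most at day 7 among the 3 genes that passed on each day after adjustment. It was at 2.03, 1.91 and 2.08 against 2.34, 2.50 and 2.64 at day 3, and at 1.65, 1.70 and 1.92 against 0.91, 0.69 and 0.74 at day 7, which gave effects of 0.49 ± 0.13 and -0.98 ± 0.13 (adjusted p = 0.0198). Rps10 has near-identical pseudogene copies, so reads may be split between them and its values are uncertain. Of the 30 cytosolic ribosomal protein genes, 26 passed downward (86.7%, against 9.07% of all genes), and 22 of these faded. Rps10 alone was reversed, a share of 3.33% near the 3.10% of all genes. The list median went from 0.49 at day 3 to 0.07 at day 7.

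Genes that went the other way, lower with antimiR106b at day 3 and higher at day 7, included 6 of 20 genes of the circadian clock and its output. The clock is a feedback loop in which Arntl and Clock switch on Per, Cry and Nr1d genes, which then repress them, and Dbp, Tef and Hlf carry the rhythm to other genes. Of 20 clock and clock output genes kept, 12 passed upward (60%, against 13.2% of all genes) and 0 downward. Reversed were 6 of the 20 (30%, against 3.10%): Per3, Nr1d2, Dbp, Tef, Bhlhe40 and Usp2. The median effect was -0.28 at day 3 and 0.22 at day 7, and the median interaction was 0.69. The reversed count was 5 to 8 in the fits without 1 library and 2 with total reads, where the list medians were -0.09 and 0.19.

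Per3, a repressor of the loop, was at 4.37, 4.31 and 4.36 against 3.53, 3.76 and 3.73 at day 3, and at 4.08, 3.99 and 4.54 against 4.73, 4.89 and 4.50 at day 7. The arms were apart at day 3, and at day 7 a control library lay above the lowest antimiR106b library. Its effects were -0.67 ± 0.13 and 0.50 ± 0.13, and its interaction was 1.17 ± 0.19 (adjusted p = 0.00155). Dbp was at 5.50, 5.57 and 5.52 against 5.02, 5.20 and 5.08 at day 3, and at 5.13, 4.44 and 5.40 against 5.94, 6.20 and 5.60 at day 7. The arms of Dbp were apart on each day, with effects of -0.43 ± 0.19 and 0.92 ± 0.19, but it was reversed in only 6 of the 12 fits without 1 library. Usp2, a deubiquitinase of clock output, had -0.28 ± 0.06 and 0.24 ± 0.06, and Bhlhe40, a repressor of the loop, had -0.34 ± 0.11 and 0.53 ± 0.11. Nr1d2, the receptor Rev-erb beta, and Tef had larger effects at day 3 (-0.71 and -0.52) than at day 7 (0.25 and 0.15).

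Ciart, a repressor of Arntl and Clock, showed the largest day 7 effect of the list. It was at 1.47, 1.08 and 1.01 against 0.95, 1.23 and 0.82 at day 3 and at 0.31, 0.21 and 0.35 against 1.90, 1.82 and 1.32 at day 7. The arms overlapped at day 3 and were far apart at day 7, with an effect of 1.39 ± 0.19 (adjusted p = 0.0205). The interaction of Ciart was 1.57 ± 0.27, and the gene was not reversed under the rule. With 3 libraries per arm this does not show that a day 3 difference was absent. Per1, Per2 and Arntl did not pass the interaction, and Arntl, which peaks opposite to Per genes, had -0.59 ± 0.19 at day 7. Cipc, another repressor of Clock, was reversed (-0.28 and 0.24) and was chosen after its values were seen.

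Control libraries of day 7 differed among themselves in these genes. Per1 was at 2.80, 3.14 and 3.75 in scrambled replicates 1 to 3 and Arntl at 4.91, 4.52 and 3.90, a spread larger than at day 3, where Per1 was at 3.90, 3.91 and 3.97. The labels give no hour of collection. Clock genes swing over the day, and the part of the hour in these values was not tested.

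The promoter of Tef is shown as an example of a reversed clock output gene (RefSeq, GRCm38.p6, chr15:81811164-81811463, plus strand). Capitals mark CACGTG, the E-box that Arntl and Clock bind, which reads the same on either strand. It stood in 7.15% of 32851 promoters. Counted by gene, 11.6% of kept genes with a promoter held it in any of their promoters. Of the clock list, 5 of 17 genes with a promoter held it, of its reversed members 1 of 5, and of all reversed genes 25 of 161 lower then higher (15.5%) and 10 of 153 higher then lower (6.54%). This motif, too, was chosen after the values were seen.
Tef: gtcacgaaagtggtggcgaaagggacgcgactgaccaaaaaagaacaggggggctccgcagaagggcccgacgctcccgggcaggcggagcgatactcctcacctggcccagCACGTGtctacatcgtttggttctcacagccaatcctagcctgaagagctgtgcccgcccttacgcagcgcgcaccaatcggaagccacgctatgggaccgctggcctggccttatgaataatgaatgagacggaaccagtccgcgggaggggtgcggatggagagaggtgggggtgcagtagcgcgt

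A pair of neighbouring matrix proteases was among the 12 leading genes lower at day 3 and higher at day 7. Adamts5, a protease that cuts the proteoglycans aggrecan and versican (chromosome 16, 85856173 to 85901828, minus strand), was at 5.18, 5.60 and 5.52 against 4.74, 4.77 and 4.80 at day 3. At day 7 Adamts5 was at 5.64, 5.63 and 5.63 against 6.11, 5.94 and 6.18. The arms were apart on each day, and the effects were -0.66 ± 0.09 and 0.44 ± 0.09, with an interaction of 1.11 ± 0.13 (adjusted p = 0.000549). Its neighbour Adamts1, a related protease whose start lies 98.7 kb away, was at 4.32, 4.44 and 4.55 against 3.96, 3.90 and 3.94, and then at 4.53, 4.59 and 4.49 against 5.05, 4.73 and 5.02. Adamts1 thus crossed in the same order, with -0.51 ± 0.09 and 0.39 ± 0.09. Tgfb2, a TGF-beta ligand, had -0.41 ± 0.09 and 0.35 ± 0.09. It was the only reversed gene of 25 in the TGF-beta and BMP list, a share of 4% near the 3.10% of all genes. The extracellular matrix list itself had 28 kept genes, of which 10 passed downward (35.7%, against 9.07%) and 0 were reversed (against 3.10%). Postn, a matricellular protein of repair, went from 0.82 to -0.01.

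Dnajb9 led the direction from lower to higher. It encodes a co-chaperone of the endoplasmic reticulum and is a target of the unfolded protein response (chromosome 12, 44205559 to 44210326, minus strand). The level was 5.17, 5.29 and 5.13 against 4.70, 4.65 and 4.86 at day 3, and 5.58, 5.38 and 5.34 against 6.02, 5.76 and 5.88 at day 7. The arms did not overlap, and the effects were -0.46 ± 0.09 and 0.45 ± 0.09. Of 19 unfolded protein response genes 4 passed upward (against 13.2% of all genes) and 3 downward (against 9.07%). Dnajb9 alone was reversed, a share of 5.26% near the 3.10% of all genes. Xbp1, a transcription factor of this response, had 0.03 at day 3 and 0.44 at day 7 and was the single gene with a positive effect that grew.

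Genes of fibres and of fuel use made up a further share of the 214. Fabp3, the fatty acid carrier of heart and muscle, was at 7.35, 7.57 and 7.42 against 7.18, 7.07 and 6.95 at day 3, and at 8.20, 8.0 and 7.84 against 8.25, 8.37 and 8.53 at day 7. Its arms were apart on each day, with effects of -0.38 ± 0.10 and 0.37 ± 0.10. Acsl1, which activates fatty acids, had -0.60 and 0.27. Of 20 fatty acid oxidation genes 11 passed upward (55%, against 13.2% of all genes) and 0 downward. Fabp3 and Acsl1 were the reversed members (10%, against 3.10%). Vdac2, a channel of the outer mitochondrial membrane, had -0.36 ± 0.06 and 0.23 ± 0.06. Sdhd and Cox7b, subunits of respiratory complexes II and IV, had -0.48 and -0.42 at day 3 and 0.28 and 0.19 at day 7. They were the reversed members of 24 oxidative phosphorylation genes (8.33%, against 3.10%). Of these 24, 22 passed upward (91.7%, against 13.2%), and the median went from -0.51 to 0.03. Of 13 mitochondrially encoded genes in the list only 9 reached the level to be kept, and 7 of the 9 passed upward (77.8%, against 13.2%). Among these, mt-Nd4, a subunit of complex I, was reversed (-0.89 and 0.30), in 7 of the 12 fits without 1 library. The mitochondrial share of reads was 7.64% and 4.81% at day 3 and 9.59% and 10.2% at day 7 (group means, scrambled first).

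Contractile genes mostly passed the interaction with opposite signs or faded. Ppp1r3a, the glycogen-targeting subunit of protein phosphatase 1 in muscle, was the 1 reversed gene of 24 mature fast fibre genes, a share of 4.17% near the 3.10% of all genes, with -1.03 ± 0.08 and 0.23 ± 0.08. Of the other members 18 passed upward (against 13.2% of all genes), 11 faded, and the list median went from -0.76 to -0.06. With quantile normalization 10 members passed. Pdlim5 was at 7.95, 7.89 and 7.93 against 7.53, 7.49 and 7.53 at day 3, and at 8.86, 8.56 and 8.70 against 8.95, 9.06 and 8.98 at day 7, with the arms apart on each day. Klhl41, a sarcomere stabiliser, and Fbxo40, a muscle ubiquitin ligase, had -0.27 and -0.44 at day 3 and 0.28 each at day 7. Phlda3, a p53 target that restrains Akt, had -0.48 and 0.35. Dmd, the gene mutated in this strain, had -0.52 and 0.15 and was not reversed.

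Further genes of this kind were chosen after their values were seen. Smyd1, Myot, Ldb3, Xirp2, Bves and Popdc2, genes of myosin assembly, the Z-disc and the fibre membrane, had day 3 effects of -0.20 to -0.62 and day 7 effects of 0.15 to 0.29. Plin5 and Mlycd, which govern the release and oxidation of fat, had -0.77 and -0.42 and then 0.49 and 0.29. Slc16a1 and Slc16a3, the lactate carriers MCT1 and MCT4, had -0.53 and -0.63 and then 0.35 and 0.29, and Ugp2, of glycogen synthesis, had -0.62 and 0.51. Pfkfb3, a regulator of glycolysis, had -0.91 ± 0.35 and 0.83 ± 0.35, but antimiR106b libraries ranged from 5.33 to 6.53 at day 3 and from 6.73 to 8.12 at day 7, and it passed the interaction in 7 of the 12 fits without 1 library. Ldb3 and Xirp2 were reversed in 3 and 6 of these fits. The glycolysis list had 16 kept genes. Of these, 11 passed upward (against 13.2% of all genes) and 1 downward (against 9.07%), and 0 were reversed (against 3.10%).

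Hist1h1c, a linker histone, and Mllt3, a reader of acylated histones, were also among the 12 leading ones in their direction. Hist1h1c was at 7.25, 7.44 and 7.35 against 6.64, 6.63 and 6.54 at day 3, and at 7.71, 7.67 and 7.79 against 8.14, 7.91 and 8.01 at day 7. Its arms were apart on each day, with effects of -0.74 ± 0.07 and 0.30 ± 0.07 and an interaction of 1.04 ± 0.10 (adjusted p = 0.000285). Mllt3 had -0.35 and 0.32, and Rsad1, a mitochondrial radical SAM protein, had -0.41 and 0.39.

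**Figure D5:**
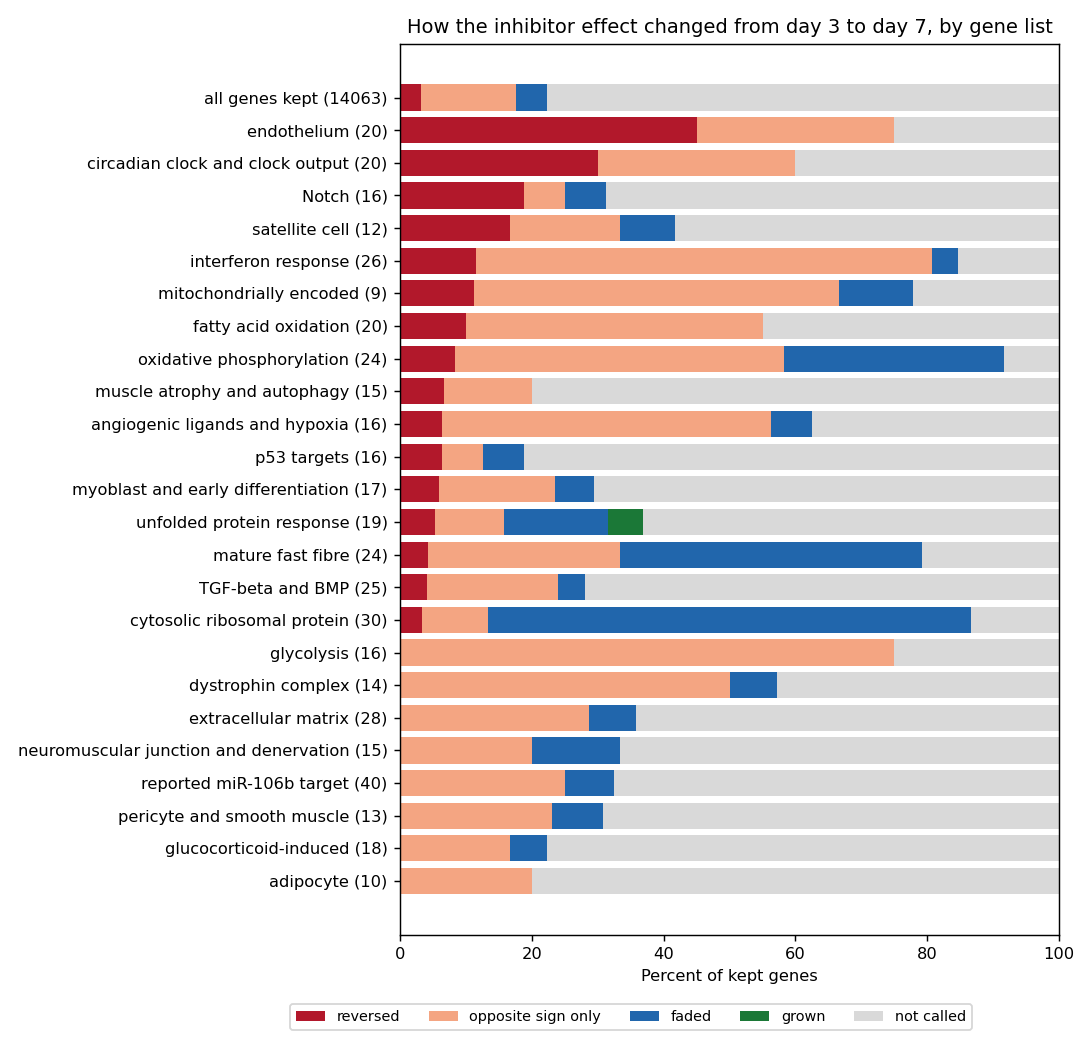
Percent of kept genes of each list (number kept in brackets) that were reversed, had opposite signs only, faded, grew or were not called in the interaction, for all genes and for the 24 lists with the largest share reversed or, where 0 were reversed, called. The endothelial (45%) and clock (30%) lists have the longest red bars against 3.10% of all genes, whereas the ribosomal list is mostly blue (22 of 30 faded) and the fast fibre list has 11 of 24 faded.

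Other lists held 0 reversed genes, which at 3.10% of all genes is no result for lists of this size. Of 18 macrophage genes 1 passed, downward (5.56%, against 9.07% of all genes), and the list median went from 0.57 to 0.08. Of 22 DNA replication and 20 mitosis genes 2 and 1 passed downward (9.09% and 5%, against 9.07%). Their medians were 0.38 and 0.49 at day 3 and 0.03 and 0.00 at day 7. The 40 reported targets of miR-106b had 10 genes passing upward (against 13.2% of all genes), 3 downward (against 9.07%) and 0 reversed (against 3.10%), with medians of 0.05 and -0.01. Cdkn1a, a cell cycle inhibitor in that list, faded from 0.70 ± 0.13 to 0.14 ± 0.13, and so did Mcm7, the host gene of miR-106b, from 0.43 ± 0.09 to 0.05 ± 0.09. Their interactions were near the threshold (adjusted p = 0.0461 and 0.0432) and lost it without any of several libraries. Immediate early genes, class II antigen presentation genes and fibroblast genes had 18, 12 and 13 kept members, and 0 passed in each, against 22.3% of all genes.

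The reversed genes differed in their course in control muscle, which shares its libraries with both effects and is given side by side only. Over all genes, 32.9% were higher and 35.3% lower at day 7 than at day 3 with the scrambled inhibitor. The median change in that arm was -0.54 for the 222 genes higher then lower and 0.48 for the 214 lower then higher, beside 0.00 over all genes. The endothelial list went against the median of its direction, with 0.66, while the interferon list had -2.11. Clock genes had a median of 0.35 and oxidative phosphorylation genes 0.88. Faded genes had -0.77 where they were higher at day 3 and 0.76 where they were lower.

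Some reversed genes lay next to each other. With starts within 100 kb, 16 neighbouring pairs went from higher to lower and 11 from lower to higher. The same count was not made over all kept genes, so these numbers are a description and show no clustering. The 11 include mt-Tm with mt-Tw, mt-Tw with mt-Nd4, and mt-Nd4 with mt-Te, all on the mitochondrial genome. Among the first were Tap1 and Tap2 (15974 bases apart), H2-Q4 to H2-Q7, Gimap4 and Gimap1 (54.5 kb), and Eng and Sh2d3c (74.5 kb), an adaptor of cell migration. Among the second were Adamts1 and Adamts5, Nr1d2 and Nkiras1 (32.0 kb), and Cox17 and Popdc2 (15.2 kb). Gm12043 and Ugp2 have starts 801 bases apart. Whether reads were counted by strand is not given in the sources used here, so overlapping or antisense neighbours may share reads.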

How the data were processed

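RNA-seq libraries from 12 tibialis anterior muscles were compared, 3 for each inhibitor and day. The values are log2 CPM (reads scaled to library size, on a log2 scale), deposited by the authors as 1 table of 28116 gene symbols. The submitters' processing notes name the build mm10, the aligner STAR with featureCounts, limma 3.34.9 and edgeR 3.20.9, and for the raw reads Trim Galore 0.4.3.1 after FastQC 0.72. The prior count, the library scaling factors and the reads behind each value were recovered from the steps between low values.

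Genes with at least 1 CPM in at least 3 libraries were fitted with limma 3.58.1 in R 4.3.3: 4 group means, a trended prior variance and Benjamini-Hochberg adjustment over all 14063 genes. All adjusted p-values come from this fit. Libraries held 28857739 to 42825246 reads, so 1 read was worth at most 0.0356 CPM. The labels do not say whether an animal gave more than 1 muscle, and p-values measure the spread between these samples only.

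The members and the 45 gene lists were chosen with earlier results of these data known. Genes were named by rule: the 12 per direction with the largest smaller absolute t (ordinary symbols), every reversed list member, up to 3 called genes per list, leading faded and grown genes, and a fixed set. Others are said to be chosen after their values were seen. The 3′ UTRs and positions came from GENCODE M21 (GRCm38), and promoters and the microRNA from RefSeq (GRCm38.p6). Alternatives were other filters, pseudocounts, scalings, prior variance, library weights, voom weights on recovered reads, a replicate block, stricter thresholds and leaving out each library.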

Additional observations from a re-analysis of the deposited data

Results flagged for a closer look

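The inhibitor effect differed between day 3 and day 7 by the interaction test, limma with Benjamini-Hochberg adjustment, for 1858 genes upward and 1276 downward. For the 12 leading genes per direction of reversal the interaction is given here on the log2 scale, and each passed an adjusted p of 0.05. From higher to lower it was -1.13 for Trp53i11, -1.09 for Pcdh1, -0.90 for Aplnr and -1.35 for Prr5. It was -0.88 for Bmf, -0.76 for Tap2, -1.18 for Sigirr and -1.39 for Micall2. It was -0.68 for F11r, -1.0 for H2-Q4, -1.04 for Gimap1 and -1.14 for Hid1. From lower to higher it was 0.92 for Dnajb9, 1.11 for Adamts5, 0.90 for Adamts1 and 1.04 for Hist1h1c. It was 0.67 for Mllt3, 0.80 for Rsad1, 0.70 for Pdlim5 and 1.17 for Per3. It was 0.52 for Usp2, 0.59 for Vdac2, 0.75 for Fabp3 and 0.76 for Tgfb2. These 24 genes were chosen for their opposite daily effects, so the size of the interaction and its passing are a description.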

How the results depend on the processing

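Counts of reversed genes depended on the day 7 libraries, since few day 7 effects were clear, and 12 libraries limit every count. The day 7 effect passed in 9 genes with the settings of the report, in 20 with a 0.5 CPM filter, 15 with no filter, 35 with log2(CPM + 1), 46 with log2(CPM + 5), 17 with quantile normalization, 28 with total reads, 58 with library weights and 0 with a replicate block. With log2(CPM + 5) the interaction passed downward in 2047 genes, with 970 faded and 15 grown. Quantile normalization gave 1167 faded genes. Total reads gave 874 genes upward, 3487 downward, 459 and 105 reversed and 1119 faded. Library weights gave 2801 upward, 2533 downward, 445 and 407 reversed, 3476 of opposite sign only, 39 grown and 8820 at day 3. With an unadjusted p below 0.01 on each day 61 and 56 genes were reversed, and with an adjusted p below 0.05 on each day 3 and 0.

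Leaving out 1 library gave ranges of 1275 to 2466 genes upward, 788 to 2089 downward, 126 to 581 reversed from higher to lower and 129 to 637 from lower to higher. The ranges were 1358 to 2787 of opposite sign only, 377 to 743 faded, 3 to 42 grown, 3488 to 5673 at day 3, 0 to 457 at day 7, and 8555 to 9678 over time in the scrambled arm. Scrambled day 7 replicate 1 set the upper ends of 2089, 581, 637, 42 and 457. AntimiR106b day 7 replicate 2 gave 126 reversed, 17 grown and 70 at day 7, and scrambled day 7 replicate 3 gave 129 reversed. The downward count was 788, 805 and 791 and the faded count 377, 387 and 409 without scrambled day 3 replicate 2 or 3 or antimiR106b day 3 replicate 2.

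The replicate block gave 1702 genes upward, 1135 downward and 237 and 208 reversed. Correlations of same-numbered libraries were -0.04 to 0.14, not over 0.1 in every pair, so the numbers were not taken as a pairing. As a hint from the data, 9 of 12 libraries were closest to their own number. Neither Myh3 (interaction 0.05) nor Per1 (0.17) passed, and their sign turned: Myh3 to -0.00657 with log2(CPM + 5), -0.26 with quantile normalization, -0.17 with total reads and as low as -0.22 without antimiR106b day 7 replicate 1, and Per1 to -0.0513 with total reads. Without 1 library Myh3 ranged from -0.22 to 0.47 and Per1 from -0.0472 to 0.43. The cause was not tested.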
